A study of Mus musculus with 2 samples.

Results

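Srsf1 and 9 other genes of the serine/arginine-rich (SR) splicing factor family, Srsf2, Srsf3, Srsf4, Srsf5, Srsf6, Srsf7, Srsf9, Srsf10 and Srsf11, were followed in nuclei of brown fat with and without a deletion of Srsf1. The 10 members were taken by symbol from the 32285 genes of the count tables and not by their values. Single-nucleus RNA-seq (snRNA-seq) of interscapular brown adipose tissue (BAT) was made from 8-week-old mice, and the study states that only males were used. Molecules of RNA were told apart by random tags (unique molecular identifiers, UMIs), and levels are given here as UMIs per 1000000 UMIs of a class of nuclei in a library (CPM). There was 1 WT library (Srsf1 flox/flox) and 1 KO library (Adipoq-Cre; Srsf1 flox/flox). Both genotypes carried the floxed Srsf1 allele, the controls were littermates without Cre, and the Cre was driven by the promoter of Adipoq, the adiponectin gene of mature adipocytes. The number of mice behind each library and the exons that were removed are not given in the sources used here. Counts are per gene, so RNA of a deleted allele that keeps some exons can still be counted as Srsf1.

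SR proteins bind short sequences in exons through an RNA recognition motif and recruit the splicing machinery through a tail rich in arginine and serine. The tail is phosphorylated by SRPK kinases in the cytoplasm and by CLK kinases in the nucleus, which sets where the protein is and whether it is active. Many SR genes hold exons or introns whose inclusion brings in a premature stop codon, and such transcripts are removed by nonsense-mediated decay. Through these transcripts several SR proteins limit their own amount and that of other members, so the levels of the rest of the family are of interest where 1 member is deleted.

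In adipocyte nuclei Srsf1 was 3.11 times lower in KO than in WT, and the rest of the family did not move in 1 direction. Of the 9 other members, 1 was at least 1.5 times higher in KO (Srsf6), 3 were at least 1.5 times lower (Srsf2, Srsf3 and Srsf9) and 5 lay between these limits (Srsf4, Srsf5, Srsf7, Srsf10 and Srsf11). Srsf2 was 2.88 times lower in KO, close to the value of Srsf1 itself. Among all 11205 genes with at least 200 UMIs over both libraries in adipocyte nuclei, 30.5% were at least 1.5 times higher in KO and 23% at least 1.5 times lower. With Srsf1, 4 of 10 members were lower and 1 of 10 was higher. With 1 library per genotype there is no replicate, and no test or p-value is given. The 95% intervals cover counting error only, and are exact for levels, shares and ratios and a normal approximation on the log scale for differences between classes.

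The sequence just before the start of Srsf1 is shown beside those of Srsf2, which was lower in KO adipocyte nuclei to a similar extent, and Srsf6, which was higher. Each is the 200 bases before the RefSeq start on GRCm38.p6, read 5′ to 3′ on the strand of the gene, with matches in capitals to CCAAT (bound by NF-Y), GGGCGG (bound by SP1), TATAAA (the TATA box) and TGACG (part of the site of cAMP response element binding proteins), searched on both strands.
Srsf1, chr11:88047173-88047372, + strand: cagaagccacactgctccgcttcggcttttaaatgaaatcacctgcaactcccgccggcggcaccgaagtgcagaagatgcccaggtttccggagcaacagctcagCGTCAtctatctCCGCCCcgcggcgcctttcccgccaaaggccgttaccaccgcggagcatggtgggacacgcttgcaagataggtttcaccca
Srsf2, chr11:116853095-116853294, - strand: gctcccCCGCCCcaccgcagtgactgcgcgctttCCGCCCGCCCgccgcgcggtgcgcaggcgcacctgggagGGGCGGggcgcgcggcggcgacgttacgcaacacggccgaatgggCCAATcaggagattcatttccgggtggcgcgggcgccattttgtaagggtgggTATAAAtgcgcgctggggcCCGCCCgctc
Srsf6, chr2:162931308-162931507, + strand: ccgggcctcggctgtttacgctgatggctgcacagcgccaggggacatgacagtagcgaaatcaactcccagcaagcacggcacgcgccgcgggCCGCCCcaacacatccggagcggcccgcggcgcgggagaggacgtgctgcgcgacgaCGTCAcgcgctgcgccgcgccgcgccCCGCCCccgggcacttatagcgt
Srsf1 held 1 match to GGGCGG and 1 to TGACG. Srsf2 held 5 to GGGCGG, of which 2 overlap each other, 1 to CCAAT and 1 to TATAAA. Srsf6 held 2 to GGGCGG and 1 to TGACG. Over the 13 RefSeq starts of the 10 members, GGGCGG was found in 9 members, TGACG in 6, CCAAT in 3 and TATAAA in 2. Of all 32851 RefSeq starts, 31.0% held GGGCGG in the same 200 bases, 15.7% TGACG, 29.3% CCAAT and 9.96% TATAAA. A match describes the letters of the window and not a bound site. The window of Srsf1 also lies within the antisense gene Gm11508 and overlaps an exon of the noncoding gene 2010015M23Rik, both on the other strand.

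The members lie on 7 chromosomes, and only Srsf1 and Srsf2 (chromosome 11), Srsf4 and Srsf10 (chromosome 4) and Srsf3 and Srsf7 (chromosome 17) share one. In GENCODE release M21, 9 of the 10 members have at least 1 transcript annotated as a target of nonsense-mediated decay, with Srsf10 as the exception. Srsf1 (chr11:88047373-88053755, + strand) has 7 transcripts, of which 2 are decay targets and 2 retain an intron. Srsf11 has 19 transcripts, of which 3 are decay targets and 11 retain an intron. The counts add all transcripts of a gene, so productive and decay-targeted forms cannot be told apart.

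Nuclei were put into classes by the summed UMIs of 8 marker genes per class, which include Plin1 and Adipoq for adipocytes, Pdgfra and Dcn for precursors (adipose stem and progenitor cells), Pecam1 and Cdh5 for endothelial, Ptprc and Adgre1 for immune and Myh11 and Rgs5 for mural cells. There were 4287 WT and 2358 KO adipocyte, 616 and 1705 precursor, 2260 and 1221 endothelial, 850 and 3245 immune and 517 and 331 mural nuclei, and 3812 and 2311 nuclei had no leading class. The median adipocyte nucleus held 6473 UMIs in WT and 5903.5 in KO, and 52 barcodes occurred in both libraries. The libraries differed in more than genotype: the median mitochondrial share was 1.10% of UMIs in WT and 0.0491% in KO. Adipocyte RNA was found in the other classes, more so in WT. Ucp1, Acvr1c, Dgat2, Plin5 and Pck1, adipocyte genes that no class call used, summed to 31.9% to 54.9% of their adipocyte level in the 4 other WT classes and to 4.16% to 20.8% in the 4 other KO classes. In adipocyte nuclei the summed immune markers were at 64.2 CPM in WT and 535 in KO, against 4611 and 7978 in immune nuclei, with all 8 detected in both. The brown fat gene Ucp1 was at 1848 CPM in WT and 62.9 in KO adipocyte nuclei. The part of these differences in the values of the SR genes was not tested, except where a value is given beside a result.

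Srsf1, the deleted gene, encodes the splicing factor SF2/ASF, which binds purine-rich exon sequences. In adipocyte nuclei it was at 192 CPM in WT (95% interval 187 to 197, from 5740 UMIs) and at 61.7 in KO (58.1 to 65.4, from 1101 UMIs). On the log2 scale KO against WT stood at -1.64 (-1.73 to -1.54), and 7.72% of all genes compared had a lower ratio. The antisense gene Gm11508, which overlaps Srsf1, was at 9.15 CPM in WT and 7.62 in KO. Adipocyte nuclei had the highest Srsf1 level of the 5 classes in WT and the lowest in KO. In WT its interval lay above that of the next class, mural nuclei, while in KO it overlapped that of immune nuclei. Srsf1 made up 10.8% of the UMIs of the 10 members in WT adipocyte nuclei and 4.52% in KO.

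Srsf2 encodes SC35 and is known to help release paused RNA polymerase. It was at 256 CPM in WT adipocyte nuclei (251 to 262) and at 88.9 in KO (84.5 to 93.3). The log2 ratio was -1.53 (-1.61 to -1.45), with an interval that overlaps that of Srsf1. Its count is uncertain, since Srsf2 overlaps Mettl23 and Mfsd11 on the opposite strand and whether the counting used strand is not stated. Mettl23, a methyltransferase gene, was at 28.8 CPM in WT and 8.85 in KO adipocyte nuclei (log2 ratio -1.70). Mfsd11, a transporter-like gene, went the other way, from 47.1 to 61.5 CPM (log2 ratio 0.39). Whether reads of these genes were also counted for Srsf2 was not tested.

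Srsf3, the smallest SR protein and an adaptor for export of mRNA, was at 116 CPM in WT (112 to 120) and at 71.3 in KO adipocyte nuclei (67.4 to 75.3), a log2 ratio of -0.70 (-0.79 to -0.61). Srsf9 was scarce, with 292 UMIs in WT and 113 in KO adipocyte nuclei, or 9.75 and 6.33 CPM. Its log2 ratio of -0.62 had an interval from -0.95 to -0.30, which reaches across the limit of 1.5 times. The call of Srsf9 was lost in 2 of 10 alternative settings and that of Srsf3 in 1 of 10. Both were lost when the leading marker list of a nucleus needed no margin over the next (log2 ratios of -0.54 for Srsf3 and -0.44 for Srsf9), which left Srsf2 as the only other member at least 1.5 times lower.

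Srsf6, which like Srsf4 and Srsf5 has a second RNA recognition motif, was the single member at least 1.5 times higher in KO adipocyte nuclei. It was at 81.8 CPM in WT (78.6 to 85.1) and at 136 in KO (130 to 141). The log2 ratio was 0.73 (0.65 to 0.81), and it stayed past 1.5 times in all 10 alternative settings. In WT the adipocyte level of Srsf6 was the lowest of the 5 classes, although it overlapped that of immune nuclei. In KO it was the highest, and overlapped that of precursor nuclei. Its share of the UMIs of the 10 members went from 4.61% in WT to 9.96% in KO.

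**Figure D1:**
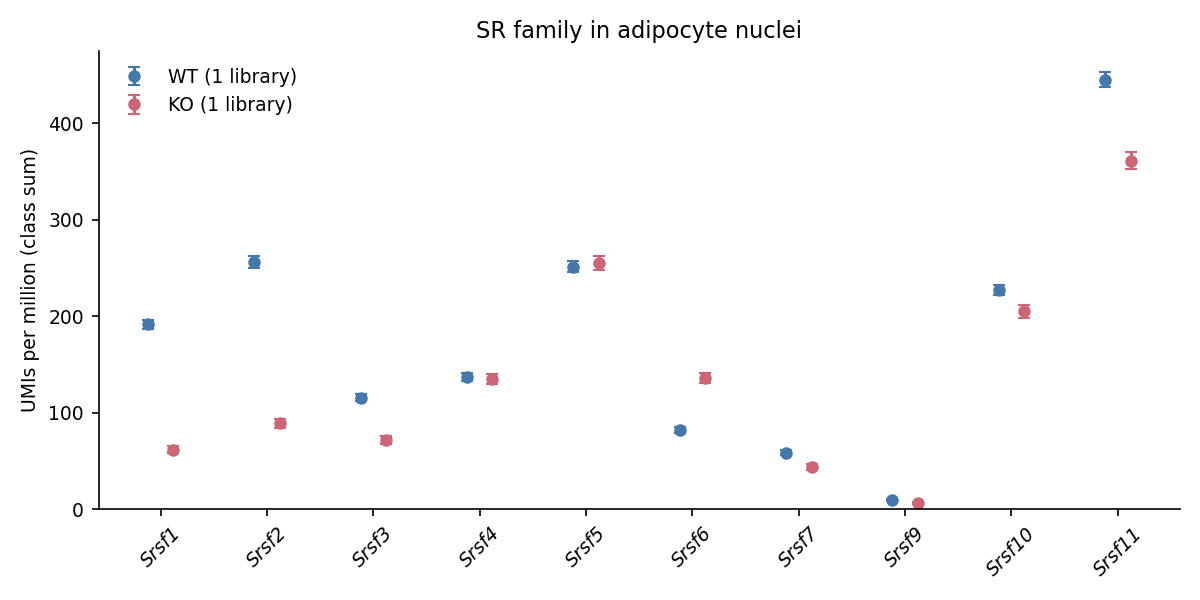
Level of each member in adipocyte nuclei, in CPM (UMIs per 1000000 UMIs of the class), for the 1 WT library (blue) and the 1 KO library (red), with exact 95% Poisson intervals that cover counting error only. Srsf1, Srsf2 and Srsf3 lie lower in KO and Srsf6 lies higher, while Srsf4 and Srsf5 overlap. Levels are to be compared between libraries and not between genes, since they are not scaled to transcript length.

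The remaining 5 members differed by less than 1.5 times. Srsf4, which overlaps A930004J17Rik on the same strand, was at 137 CPM in WT and 135 in KO, and its log2 ratio of -0.02 (-0.10 to 0.05) had an interval across 0. Srsf5, known for its response to insulin and to growth signals, was at 251 and 255 CPM, with a log2 ratio of 0.02 (-0.03 to 0.07). Both thus stood close to equal in the 2 libraries. Srsf7, which shares the zinc knuckle that other members lack, was at 58.3 in WT and 43.8 in KO, a log2 ratio of -0.41 (-0.54 to -0.29). It passed 1.5 times (log2 ratio -0.63) when the leading marker list had to be 4 times the next. Srsf10, which acts as a splicing repressor when it is dephosphorylated, was at 227 and 205, with a log2 ratio of -0.15 (-0.21 to -0.09). Srsf11, which overlaps Gm43362 on the same strand, was at 445 and 362, with a log2 ratio of -0.30 (-0.34 to -0.26). A930004J17Rik and Gm43362 were not among the genes counted here, and even counts by strand may not separate reads in such an overlap.

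Set against all genes, the family lay toward the lower side. The median log2 ratio of the 9 other members in adipocyte nuclei was -0.30, and that of all 11205 genes was 0.12. Relative to that shift the log2 ratio of Srsf6 was 0.61 and that of Srsf1 was -1.75, and the counts of 1 higher and 3 lower member stayed as they were. Of all genes, 8.41% had a lower log2 ratio than Srsf2, 20.2% a lower one than Srsf3 and 73.9% a lower one than Srsf6. Srsf6 therefore stood within the upper part of the broad spread of all genes and not at its edge. Summed, the 9 other members were at 1583 CPM in WT and 1302 in KO adipocyte nuclei, a log2 ratio of -0.28 (-0.30 to -0.26). The sum of the family without Srsf1 was thus lower, and not higher, where Srsf1 was lost. It includes Srsf2, whose count is uncertain and which went from 256 to 88.9 CPM, the largest fall in CPM of the 9. A sum without Srsf2 was not computed, so how far the lower sum holds without it was not tested.

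**Figure D2:**
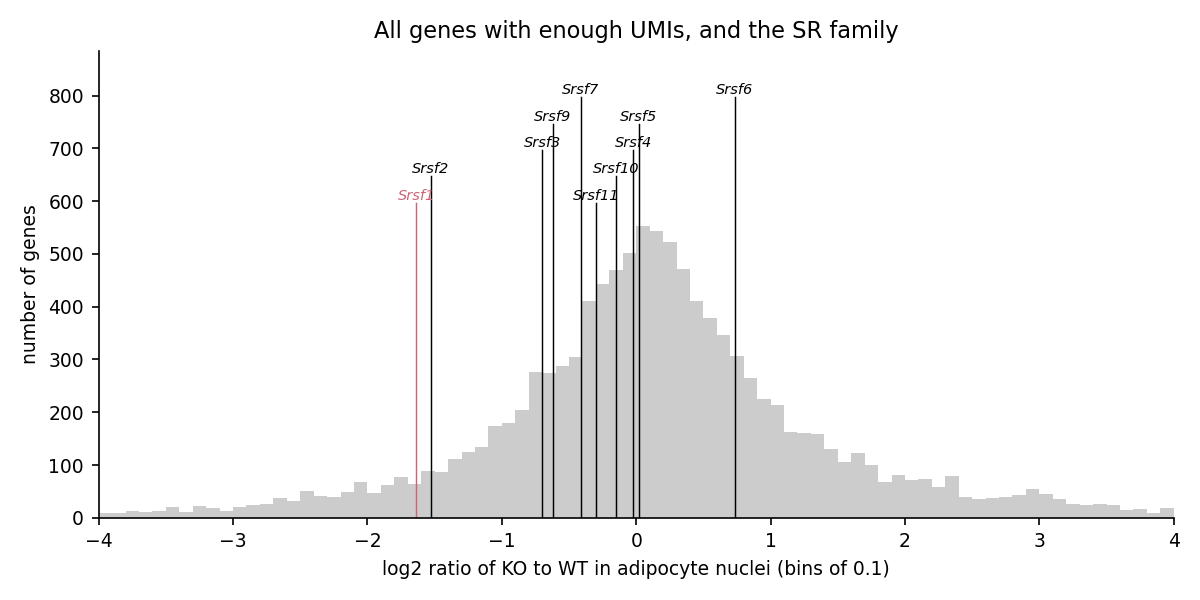
Histogram of the log2 ratio of KO to WT in adipocyte nuclei for all 11205 genes with at least 200 UMIs over both libraries (grey, bins of 0.1, shown from -4 to 4), with a line for each member (Srsf1 in red). Srsf1 and Srsf2 stand together on the left at -1.64 and -1.53, and Srsf6 stands alone on the right at 0.73.

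The deletion is driven by an adipocyte promoter, and the other classes were measured beside adipocytes. They hold adipocyte RNA, more so in WT, so the deletion in adipocytes also enters their values, and effects of the knockout on other cells cannot be told apart from other differences between the libraries. Srsf1 was lower in KO in each of the 4 other classes too, though less. It was at 133 CPM in WT and 80.8 in KO precursor nuclei, 135 and 83.7 in endothelial, 123 and 66.4 in immune and 151 and 85.4 in mural nuclei. The log2 ratios were -0.72 (-0.88 to -0.56), -0.69 (-0.89 to -0.49), -0.88 (-1.03 to -0.74) and -0.83 (-1.07 to -0.58). Over the 4 classes together the log2 ratio was -0.86, so that in adipocyte nuclei was lower by 0.78 (log2 difference -0.78, -0.90 to -0.65). When the adipocyte RNA in these classes, as measured by the 5 adipocyte genes above, was subtracted from each, the 4 log2 ratios lay between -0.34 and -0.09 and the difference was -1.32. With classes taken from clusters of nuclei the difference was -0.51. By western blot, the study reports SRSF1 protein as retained in the stromal-vascular fraction of KO fat, which leaves out mature adipocytes. Protein in a fraction and RNA in classes of nuclei are unlike measures, and they were not compared here.

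Srsf2 followed the same pattern with a wider gap. It was at 199 CPM in WT and 127 in KO precursor nuclei, 210 and 149 in endothelial, 234 and 192 in immune and 209 and 155 in mural nuclei. The log2 ratios of these classes ran from -0.65 in precursor to -0.29 in immune nuclei, and the difference of adipocyte nuclei from the 4 classes together was -1.15 (-1.25 to -1.05). With adipocyte RNA subtracted these 4 log2 ratios lay between -0.27 and 0.19. Srsf3 was at least 1.5 times lower in adipocyte nuclei alone, and its log2 ratios in the other classes lay between 0.06 and 0.12 with intervals across 0. Its difference was -0.74 (-0.86 to -0.62). For Srsf6 the log2 ratios in the other classes ran from -0.12 in endothelial to 0.30 in mural nuclei, and its difference was 0.64 (0.52 to 0.76). Srsf7 had a difference of -0.43 (-0.58 to -0.28), Srsf10 of 0.22 (0.12 to 0.32) and Srsf11 of -0.09 (-0.16 to -0.03). With adipocyte RNA subtracted from the other classes these became -0.67 for Srsf10, which turned direction, and -0.72 for Srsf11, both past 1.5 times, while Srsf7 stood at -0.17 and Srsf6 at 0.82. For Srsf4 (0.03), Srsf5 (0.02) and Srsf9 (-0.28, -0.68 to 0.12) the intervals of the difference held 0.

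Counted the same way, 3 of 10 members had a ratio in adipocyte nuclei at least 1.5 times lower than that in the other 4 classes together (Srsf1, Srsf2 and Srsf3), where 6.66% of 10509 genes did. Srsf1 is the gene deleted in adipocytes, so its place in this count follows from the design. That leaves Srsf3 and Srsf2, whose count is uncertain. At least 1.5 times higher was 1 member (Srsf6), where 31.4% of genes did. With adipocyte RNA subtracted, Srsf10 and Srsf11 passed 1.5 times lower as well. The share of all genes was not computed in that setting, so the members that passed cannot be set against it. The median log2 difference of all genes without subtraction was 0.24. The summed 9 other members, Srsf2 included, had a log2 ratio of -0.13 in the 4 classes together, so their difference was -0.16.

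In the other classes few members passed 1.5 times. Among precursor nuclei 3 of 9 measured members were lower (Srsf1, Srsf2 and Srsf10) and 0 higher, against 18.8% and 18.4% of 7914 genes. Srsf10 was at 141 CPM in WT and 90.7 in KO precursor nuclei, a log2 ratio of -0.64 (-0.79 to -0.48), which turned to 0.19 when adipocyte RNA was subtracted. That subtraction also took Srsf10 past 1.5 times higher in endothelial (log2 ratio 0.74) and immune nuclei (0.84). Its WT level in adipocyte nuclei, 227, was above that of any other class. In endothelial nuclei 1 of 9 was lower and 0 higher, against 15.3% and 11.6% of 6394 genes. In immune nuclei 1 of 10 was lower and 0 higher, against 21.2% and 17.6% of 9185 genes. In mural nuclei 1 of 9 was lower and 0 higher, against 17.4% and 22.2% of 5184 genes. The lower member in these 3 classes was Srsf1. Srsf9 had too few UMIs to be measured in precursor, endothelial and mural nuclei. Immune nuclei alone had a ratio of Srsf7 with an interval above 0, at 85.4 CPM in WT and 100.2 in KO (log2 ratio 0.23, 0.08 to 0.39), and with adipocyte RNA subtracted the log2 ratio was -0.03.

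**Figure D3:**
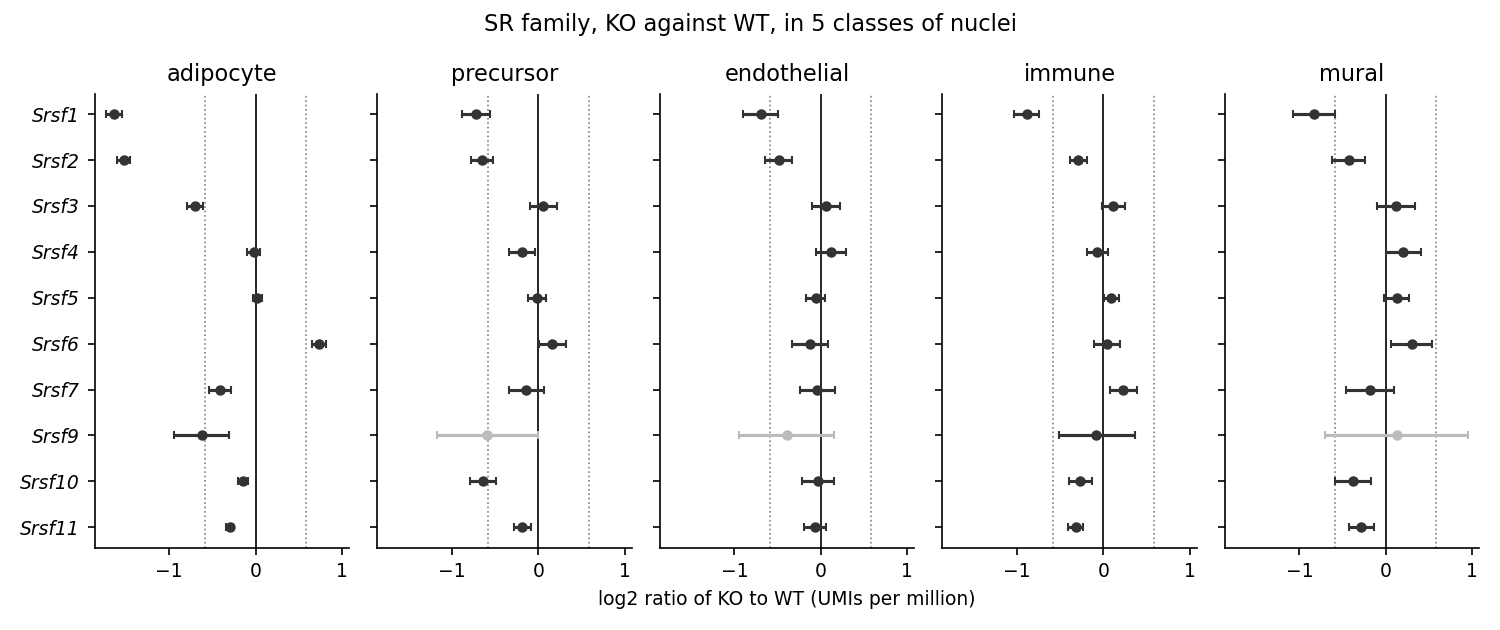
Log2 ratio of KO to WT of the 10 members in each of the 5 classes, with exact 95% intervals for counting error only; dotted lines mark 1.5 times in either direction and grey points are below 200 UMIs over both libraries. Srsf1 lies left of 0 in every class, Srsf3 lies left in adipocyte nuclei alone, and Srsf6 passes the right dotted line in adipocyte nuclei alone.

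The order of the classes within a library also differed between members. In WT, Srsf1, Srsf2, Srsf10 and Srsf11 were highest in adipocyte nuclei with intervals apart from the next class, and Srsf4 was highest there with an interval that overlapped mural nuclei. Srsf3, Srsf5, Srsf6 and Srsf7 had their lowest WT level in adipocyte nuclei, with an interval apart from the next class for Srsf7 alone. In KO, Srsf10 (205 CPM) and Srsf11 (362) remained highest in adipocyte nuclei with intervals apart from the next class. Srsf1, Srsf2, Srsf3, Srsf7 and Srsf9 were lowest in KO adipocyte nuclei. Of these, the intervals of Srsf2, Srsf3 and Srsf7 were apart from the next class, while those of Srsf1 and Srsf9 were not.

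The share of nuclei with a UMI depends on depth, so each nucleus was thinned to 1000 UMIs, which left out 379 WT and 176 KO adipocyte nuclei. After thinning, 17.1% of WT (15.9% to 18.3%) and 5.45% of KO adipocyte nuclei (4.54% to 6.49%) held a Srsf1 UMI. Without thinning the shares were 61.7% and 28.4%. For Srsf2 the thinned shares were 22.6% in WT and 8.89% in KO, for Srsf3 11.5% and 6.55% and for Srsf6 8.39% and 14.0%. The intervals of WT and KO did not overlap for any of these 4 genes in adipocyte nuclei. Those of Srsf10 (20.5% in WT and 17.6% in KO) and Srsf11 (34.0% and 30.3%) were apart too. The intervals of Srsf4, Srsf5, Srsf7 and Srsf9 overlapped. The share of all genes with thinned intervals apart was not computed. In the other classes the thinned share with a Srsf1 UMI was 10.3% in WT and 9.07% in KO precursor nuclei, 13.3% and 7.93% in endothelial, 12.5% and 6.19% in immune and 14.8% and 8.86% in mural nuclei. The intervals overlapped in precursor and mural nuclei. All 5 classes express Srsf1, so no class gives a background share from free RNA.

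**Figure D4:**
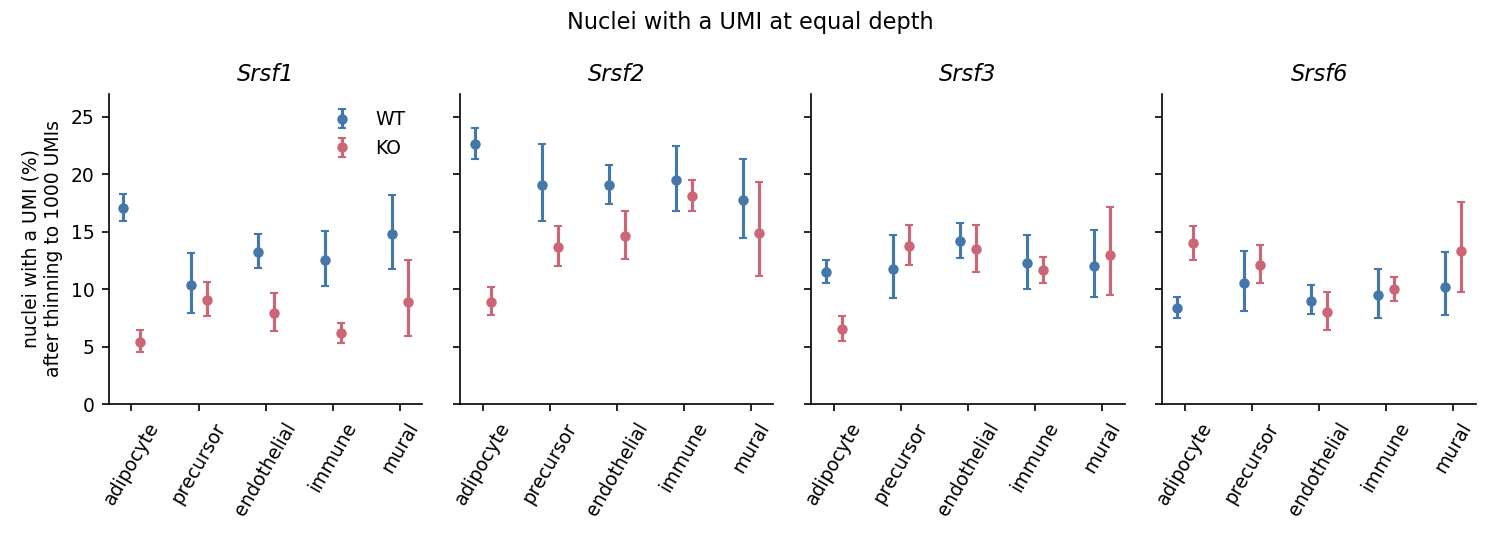
Percent of nuclei with at least 1 UMI of Srsf1, Srsf2, Srsf3 or Srsf6 after thinning each nucleus to 1000 UMIs, per class, in WT (blue) and KO (red), with exact 95% binomial intervals for counting error only. In adipocyte nuclei Srsf1 goes from 17.1% to 5.45% and Srsf6 from 8.39% to 14.0%, and the other classes show smaller gaps or none.

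Most KO adipocyte nuclei held no Srsf1 UMI (1688 of 2358), 437 held 1 and 233 held 2 or more, up to 19. In WT 1640 of 4287 held none, 1207 held 1 and 1440 held 2 or more. A nucleus without a UMI is shallower and need not lack the RNA: the median was 5022.5 UMIs in KO nuclei without and 8788 in those with a Srsf1 UMI. Within KO adipocyte nuclei the levels of the other members were much alike in both sets. Srsf6 was at 140.3 CPM in nuclei without a Srsf1 UMI (133 to 148) and 130.2 in those with one (122 to 138). Srsf2 was at 86.7 and 91.6 and Srsf3 at 67.7 and 75.7, with overlapping intervals. Srsf11 was an exception, at 378 without (366 to 391) and 340.4 with a Srsf1 UMI (328 to 353). In WT the order of Srsf11 was the other way, at 421 without and 452 with. WT nuclei with a Srsf1 UMI were deeper too, at a median of 7304 UMIs against 3232.5 in those without. The ratio of Srsf11 also changed with depth, as given below, and the part of depth in these Srsf11 values was not tested.

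The main differences had the same direction at each depth. In 4 bins of adipocyte nuclei, from 500 to 2000, 2000 to 4000, 4000 to 8000 and above 8000 UMIs, the log2 ratio of Srsf1 lay between -1.70 and -1.17, that of Srsf2 between -1.64 and -0.74 and that of Srsf3 between -0.80 and -0.60. Srsf6 lay between 0.66 and 0.95, past 1.5 times in each bin. The smallest differences of Srsf1 and Srsf2 were those of the shallowest bin, which held 871 WT and 316 KO nuclei. Srsf7 went from 0.03 in the shallowest bin to -0.84 between 4000 and 8000 UMIs. Srsf11 was not lower in KO below 4000 UMIs, at 0.15 in the shallowest bin and 0.04 in the next. It stood at -0.24 between 4000 and 8000 UMIs and at -0.37 above 8000. Srsf9 had between 4 and 135 UMIs per library in a bin and its ratio lay between -2.29 and 0.18.

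Adipocyte nuclei fell mainly into 3 clusters that were almost wholly of 1 library each, so cluster and genotype cannot be told apart. Clusters were made without the 10 members among the variable genes. Of the WT clusters, the large one (3704 nuclei) had Ucp1 at 1968 CPM and Slc7a10, an amino acid transporter gene of white adipocytes, at 9.36. The small one (237 nuclei) had Ucp1 at 671, Slc7a10 at 511 and Lep, the leptin gene, at 100.1. The KO cluster (2516 nuclei) had Ucp1 at 57.6, Slc7a10 at 164 and Lep at 73.7. Srsf1 was at 190.3 CPM in the large WT cluster, 175 (158 to 193) in the small one and 61.9 in the KO cluster. Srsf2 was at 262, 212 and 86.8, and Srsf6 at 82.8, 83.5 and 137. The WT nuclei with high Slc7a10 and Lep thus lay nearer to the other WT nuclei than to KO in these 3 members. For Srsf2 the intervals of the small (194 to 232) and the large WT cluster (256 to 268) were nevertheless apart. Srsf10 and Srsf11 did not follow that order: they were at 163 and 348 in the small WT cluster, 235 and 455 in the large one and 214 and 386 in the KO cluster.

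The proteins that act on SR proteins were measured as a list of 13 kinases, phosphatase subunits and the importer, of which 12 had enough UMIs in adipocyte nuclei. There, 3 of 12 were at least 1.5 times higher in KO and 3 of 12 lower, near the 30.5% and 23% of all genes, and the median log2 ratio was -0.36. Higher were the cytoplasmic SR kinases Srpk1, from 40.2 to 71.5 CPM (log2 ratio 0.83, 0.72 to 0.95), and Srpk2, from 208 to 385 (0.89, 0.84 to 0.94). Ppp1cc, a catalytic subunit of protein phosphatase 1, was higher too, from 26.6 to 52.6 (0.98). Its paralog Ppp1ca was lower, from 14.2 to 8.40 (-0.75). Also lower were the spliceosome kinase Prpf4b, from 628 to 364 (-0.79), and Dyrk1b, from 17.7 to 11.4 (-0.63). Dyrk1a, from 309 to 463, fell barely short of 1.5 times higher (log2 ratio 0.583 against a limit of 0.585). The nuclear SR kinases Clk1, Clk2, Clk3 and Clk4 had log2 ratios between -0.43 and -0.35, short of 1.5 times, and Tnpo3, the importin that carries SR proteins into the nucleus, had -0.20. In the other 4 classes 0 genes of this list were at least 1.5 times higher, and 2 of 10 were lower in precursor, 0 of 10 in endothelial, 2 of 11 in immune and 2 of 10 in mural nuclei, where 18.8%, 15.3%, 21.2% and 17.4% of all genes were lower and 18.4%, 11.6%, 17.6% and 22.2% higher. Short of that limit, Srpk2 was higher in each of the 4 classes with an interval above 0. Its log2 ratio ran from 0.14 in immune to 0.57 in mural nuclei (0.40 to 0.74). Outside adipocytes, Srpk1 had an interval above 0 in endothelial nuclei alone (0.34, 0.10 to 0.58), Ppp1cc in all but endothelial nuclei and Dyrk1a in all 4 classes. Prpf4b was not lower in adipocyte nuclei alone. Its log2 ratio was -0.88 in precursor, -0.93 in immune, -0.61 in mural and -0.27 in endothelial nuclei. In the 4 classes together it was -0.79, as in adipocyte nuclei.

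Of 20 SR-related splicing proteins 19 had enough UMIs in adipocyte nuclei, and their median log2 ratio was 0.01. Of these 19, 2 were higher and 2 lower, against 30.5% and 23% of all genes. Higher by at least 1.5 times were Srrm1, from 139 to 210.1 CPM (log2 ratio 0.59), and Rsrc1, from 186 to 279 (0.59), both barely past the limit of 0.585. Lower were Srrm2, a scaffold of nuclear speckles, from 828 to 465 (-0.83), and Pnn, a protein of the exon junction and speckles, from 177 to 97.6 (-0.86). The SR-like factors Tra2a and Tra2b had log2 ratios of -0.48 and 0.02, and Son, the other main speckle scaffold, had -0.28. Srsf12 had 0 UMIs in adipocyte nuclei of both libraries, and with the limit for a count of 0 set at 3 counts this allows up to 0.10 CPM in WT and 0.17 in KO. In precursor, endothelial, immune and mural nuclei 0 genes of this list were higher, against 18.4%, 11.6%, 17.6% and 22.2% of all genes. Lower were 1 of 19 in precursor, 0 of 19 in endothelial, 0 of 19 in immune and 1 of 18 in mural nuclei, against 18.8%, 15.3%, 21.2% and 17.4%. The lower gene in precursor and mural nuclei was Pnn, with log2 ratios of -0.67 and -0.63.

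All 10 genes of nonsense-mediated decay had enough UMIs in adipocyte nuclei, with a median log2 ratio of 0.25. Upf1, the helicase at the centre of the pathway, was the 1 gene at least 1.5 times higher, from 20.4 to 33.7 CPM (log2 ratio 0.72, 0.56 to 0.89), and 0 were lower. These are 1 of 10 and 0 of 10, against 30.5% and 23% of all genes. The kinase Smg1 was at 461 and 616 (0.42), and Upf3b had the lowest ratio, from 66.2 to 49.5 (-0.42). In the other classes 1 of 9 was higher in immune nuclei, 0 of 9 in precursor, 0 of 7 in endothelial and 0 of 6 in mural nuclei. Of all genes 17.6%, 18.4%, 11.6% and 22.2% were higher in these classes. Lower were 0 of the list in any of them, where 15.3% to 21.2% of all genes were lower.

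**Figure D5:**
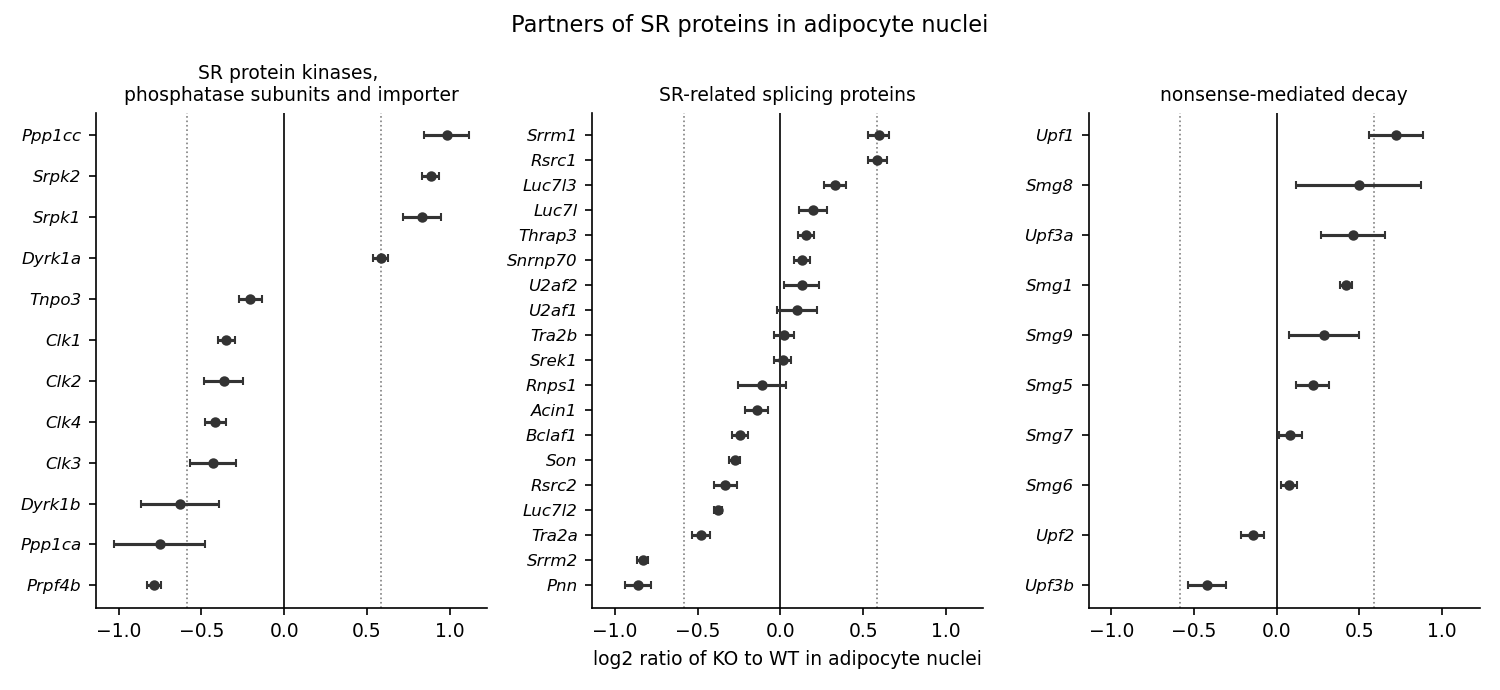
Log2 ratio of KO to WT in adipocyte nuclei for the genes of 3 lists with at least 200 UMIs over both libraries, with exact 95% intervals for counting error only and dotted lines at 1.5 times. The cytoplasmic kinases Srpk1 and Srpk2 lie right of the dotted line at 0.83 and 0.89, the 4 Clk genes lie left of 0 without reaching it, and Srrm2 and Pnn lie left of it.

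Over the 10 values of 5 classes in 2 libraries, the level of Srsf1 was most like that of Ahsa2 (Pearson r 0.98), Hsp90ab1 (0.98), Gnas (0.98), Rb1cc1 (0.96) and Nr4a2 (0.96), among 4717 genes with enough UMIs in every class. These are co-chaperone and chaperone genes, the gene of the stimulatory G protein subunit, an autophagy gene and a nuclear receptor gene of the immediate early kind. Their log2 ratios in adipocyte nuclei were -2.66, -1.89, -3.09, -0.90 and -4.06, and in the other 4 classes together -1.53, -1.36, -2.07, -0.32 and -2.58. Of the members, Srsf2 was the most like Srsf1 (r 0.80), with 310 genes closer, and Srsf6 the least (r -0.55). The 10 values share libraries and, in WT, adipocyte RNA, so these correlations are a description only.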

How the data were processed

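The authors aligned reads to GRCm38 (mm10) with STAR, counted UMIs with Cell Ranger (5.0.0 in the file headers, 3.1.0 in the methods) and deposited raw counts per gene and nucleus for 1 WT and 1 KO library. Whether intronic reads and strand were used is not given in the sources used here. The WT and KO tables held 12846 and 11495 barcodes with 93102814 and 80090208 UMIs.

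Barcodes with fewer than 200 genes, over 10% mitochondrial UMIs, or log UMIs or log genes more than 3 median absolute deviations from the library median were left out, which kept 12771 and 11378 nuclei. A nucleus took the class whose list, with at least 3 UMIs from 2 genes, had the highest share of its UMIs relative to the library mean, at least 1 time that mean (added after values were seen) and 2 times the next list. Doublets were kept, since Scrublet called 0 in WT and 2211 in KO. UMIs were summed per class and library and scaled to 1000000, ratios have exact conditional intervals, and differences between classes have normal ones from the counts. Genes needed 200 UMIs over both libraries, and a gene at 0 in 1 library was set at 3 counts for the share of all genes past 1.5 times. Nuclei are not replicates. The ratios were tested on simulated data. The named genes are the 10 members, genes of the 3 lists and the 5 genes most like Srsf1. The members and lists were chosen with earlier results of these data known. Places and transcripts came from GENCODE M21 and sequences from RefSeq (GRCm38.p6). Protein sequences were not used here. Python 3.11.15, numpy 2.4.6, scipy 1.17.1, pandas 2.3.3, scanpy 1.11.5, igraph 0.11.9, scikit-learn 1.9.0 and matplotlib 3.10.9 were used. Alternatives were other filters, margins, scalings, depths and cluster-based classes. Nuclei of at least 2000 UMIs and subtraction of adipocyte RNA were added after values were seen.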

Additional observations from a re-analysis of the deposited data

How the results depend on the processing

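With 1 library per genotype no result has a replicate, so the intervals cover counting error only, a difference between the mice or the preparations cannot be told apart from genotype, and no library could be left out. No paired analysis was possible because each genotype has 1 library. Of 540 values of single members in single classes under the alternatives, 467 stayed within the counting interval, 72 left it, and 1 value past 1.5 times changed sign, that of Srsf10 in precursor nuclei (0.19 with adipocyte RNA subtracted, an alternative chosen after seeing the data). Of all values whose interval left out 0, 11 changed sign with that subtraction and 2 with classes from clusters, in precursor, immune or mural nuclei. Srsf11 was among them in each of these 3 classes (0.28, 0.32 and 0.41 with the subtraction). In adipocyte nuclei, 79 of 100 stayed and 0 reversed. The Srsf1 log2 ratio there moved to -1.75 after centring on the median gene. Its difference from the other classes was -0.65 with no margin between marker lists, -0.97 with a margin of 4, -0.51 with classes from clusters and -1.32 with adipocyte RNA subtracted. The summed 9 other members had a log2 ratio of -0.25 with clusters, -0.40 after centring and -0.20 as a mean over nuclei. Their difference from the other classes was -0.082, -0.28 and -0.11 in these settings and -0.31 with adipocyte RNA subtracted. With no margin 1 member other than Srsf1 was lower in place of 3. At a limit of 2 times, 0 were higher and 1 was lower. The share of adipocyte nuclei with a Srsf1 UMI was 8.79% in WT and 3.14% in KO thinned to 500 UMIs, 31.6% and 11.3% thinned to 2000 and 61.7% and 28.4% without thinning, as depth sets it. The cause of the other moves was not tested.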
